A study of Rattus norvegicus with 54 samples.

Results

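Tk1, Ccne2, Cks2, Bub1b, Cdc20 and Cdkn1c are 6 rat cell cycle genes, with roles from entry into DNA synthesis to mitosis and, for Cdkn1c, in arrest. Their expression was followed in fetal gubernaculum and testis. They were taken by gene symbol from the authors' lists of selected probe sets, in which 2844 genes are named. They are measured by 7 of the 15923 probe sets on the array, 2 of them for Cdc20. The authors had chosen those lists on these same arrays, so the presence of a gene there is not independent of its differences between groups. Cks2 was listed under an older locus name and was matched through a RefSeq synonym. All 7 probe sets passed the minimum signal in both tissues.

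The study compared the LE/orl rat strain, which has inherited cryptorchidism (undescended testes), with the wild-type strain LE/wt. Each of the 54 Affymetrix arrays measured total RNA from an organ of 1 fetus, and fetuses of a group were labelled by letter from A on. The male LE/wt gubernaculum groups were the left organ on gestational day (GD) 18, 19 and 20 with 4 fetuses each and the right organ on GD20 with 3, and the male LE/orl groups had the same days, sides and numbers. In GD20 fetuses A to C of each strain the left and right organ came from the same animal. A further group held 4 female LE/wt fetuses on GD18, with both sides of a fetus pooled on 1 array. The testis groups were LE/wt and LE/orl on GD17 and GD19, with 5 fetuses each. The labels give no gene for the LE/orl trait, so a strain difference covers everything that differs between these rats. Gubernaculum RNA was amplified in 2 cycles and testis RNA in 1, per the labels, and levels were not compared between the tissues.

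The gubernaculum is the fetal ligament and bulb that guides the testis to the scrotum, and in the male it swells through cell division and matrix growth before birth. Cells that divide switch on S-phase genes and then mitotic genes in turn: cyclin E drives entry into S phase, thymidine kinase supplies DNA precursors, and cyclin-dependent kinases with their Cks subunits drive mitosis. The spindle checkpoint, of which Bub1b is a part, holds back Cdc20 until all chromosomes are attached, and Cdkn1c (p57Kip2) inhibits the kinases and is a marker of cells leaving the cycle.

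Per RefSeq on build GRCr8, Tk1 lies on chromosome 10 at chr10:103533449-103544818 and Ccne2 on chromosome 5 at chr5:29082169-29094879. Cks2 is on chromosome 17 at chr17:13722360-13727519, Bub1b on chromosome 3 at chr3:126017019-126069470, Cdc20 on chromosome 5 at chr5:137251596-137255799, and Cdkn1c on chromosome 1 at chr1:208084801-208087680. The RefSeq table of promoters matched 4 of the 6 genes (Tk1, Cks2, Bub1b and Cdc20), and the windows of these 4 are shown. Each window is printed 5′ to 3′ on the gene's strand, at chr10:103544728-103545027 (minus strand) for Tk1, chr17:13727470-13727769 (minus) for Cks2, chr3:126016817-126017116 (plus) for Bub1b and chr5:137255750-137256049 (minus) for Cdc20. Capitals mark the letters TTTGAA, the cell cycle homology region found in many G2 and mitotic promoters, and CCAAT, each searched on both strands (TTCAAA and ATTGG on the other strand).
Tk1: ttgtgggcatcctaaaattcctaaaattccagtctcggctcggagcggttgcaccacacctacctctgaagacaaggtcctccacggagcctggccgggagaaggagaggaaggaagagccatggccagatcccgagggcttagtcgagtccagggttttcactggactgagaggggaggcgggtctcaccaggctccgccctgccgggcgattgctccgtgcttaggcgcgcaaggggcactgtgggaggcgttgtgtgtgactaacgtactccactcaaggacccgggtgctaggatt
Cks2: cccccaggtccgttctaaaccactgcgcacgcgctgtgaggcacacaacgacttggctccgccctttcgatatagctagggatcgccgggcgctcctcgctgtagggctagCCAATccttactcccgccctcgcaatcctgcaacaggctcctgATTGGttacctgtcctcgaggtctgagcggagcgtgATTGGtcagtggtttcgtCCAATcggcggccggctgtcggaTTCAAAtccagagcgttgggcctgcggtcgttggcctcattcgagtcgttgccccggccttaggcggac
Bub1b: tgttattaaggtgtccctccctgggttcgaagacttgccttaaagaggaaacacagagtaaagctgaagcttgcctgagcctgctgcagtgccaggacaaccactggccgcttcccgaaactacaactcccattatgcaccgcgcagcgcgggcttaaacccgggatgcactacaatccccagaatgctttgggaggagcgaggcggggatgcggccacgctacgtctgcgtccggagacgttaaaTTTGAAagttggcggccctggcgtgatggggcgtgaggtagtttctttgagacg
Cdc20: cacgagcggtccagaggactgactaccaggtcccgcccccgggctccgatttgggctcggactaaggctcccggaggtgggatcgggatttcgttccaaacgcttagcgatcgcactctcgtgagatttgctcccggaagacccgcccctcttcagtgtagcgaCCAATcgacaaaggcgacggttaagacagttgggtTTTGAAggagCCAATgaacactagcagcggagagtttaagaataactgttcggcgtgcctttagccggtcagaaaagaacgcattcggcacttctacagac
Each window runs from 250 bases before to 50 after a start site. For Cks2 and Cdc20 that site is the end of the gene span given above, and for Tk1 and Bub1b it lies 41 and 48 bases inside the span. The Bub1b window held TTTGAA 4 bases before its start site, the Cdc20 window 51 bases before, and the Cks2 window 19 bases before on the other strand. CCAAT occurred 4 times in the Cks2 window and 2 times in the Cdc20 window, and neither motif occurred in the Tk1 window. Of 27457 rat promoter windows of this length, 18.1% held TTTGAA and 37.7% held CCAAT on either strand. The E2F letters TTTCGCGC and TTTGGCGC, in 0.342% and 0.521% of all windows, were found in none of the 4. A match is a string of letters and was not tested as a site.

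Values are the authors' GCRMA expression values on the log2 scale, so a difference of 1 is a doubling. The defining markers of muscle and matrix that the files name were high in every gubernaculum array. The mean of 7 skeletal muscle genes ran from 10.5 to 13.0 over these arrays. Of 6 Leydig cell markers 2, Scarb1 and Lhcgr, were named in the files, of 6 Sertoli markers 1, Wt1, and of 6 germ cell markers none. In testis Scarb1, Lhcgr and Wt1 passed the minimum signal. Scarb1 and Wt1 also passed in gubernaculum, where Wt1 ran from 9.62 to 11.47, so neither is particular to testis here. In tissue RNA, fewer cells of a type and less RNA per cell cannot be told apart. A 5′ to 3′ control index differed between the strains in gubernaculum, and what lies behind this was not tested. The 5′ to 3′ index, the log2 signal of a 5′ minus a 3′ control probe set averaged over beta-actin and GAPDH, lay between −4.73 and −3.46 in the 19 LE/wt arrays. It lay between −7.23 and −6.06 in 13 of the 15 LE/orl arrays and was −4.16 and −4.32 in the others, GD18 fetus A and GD19 fetus D. The authors' own group means leave out these 2 arrays. They are kept here, and the differences of the 6 genes that rest on them are also given without both. In testis the index ranges of the strains overlapped, at −1.45 to −1.07 in LE/wt and −1.53 to −0.999 in LE/orl.

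Tk1, the S-phase enzyme that phosphorylates thymidine, had the largest strain difference of the 6 genes in gubernaculum: it was lower in LE/orl on every day and on both sides. On GD18 its log2 values were 9.80, 8.96, 9.49 and 9.47 in LE/wt fetuses A to D and 6.03, 3.92, 5.09 and 4.75 in LE/orl. On GD19 they were 9.16, 9.78, 9.15 and 9.58 in LE/wt and 3.98, 4.61, 3.76 and 5.45 in LE/orl. On GD20 the left organs gave 8.28, 8.32, 8.47 and 8.60 in LE/wt and 4.11, 3.63, 4.46 and 3.94 in LE/orl. The groups did not overlap on any day, and the highest LE/orl array stood below the lowest LE/wt array, the females included. Right organs on GD20, from fetuses A to C of the left organs, gave 9.01, 8.27 and 8.28 in LE/wt and 4.34, 4.76 and 4.63 in LE/orl, again apart.

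In limma's test over 8872 probe sets with Benjamini-Hochberg adjustment, Tk1 fell by 4.48 on the log2 scale in LE/orl on GD18 (SE 0.32, adjusted p = 3.69e-11), a 22.4-fold lower value. The differences were −4.97 on GD19 (adjusted p = 2.7e-12), −4.38 on GD20 left (adjusted p = 3.32e-10) and −3.94 on GD20 right (adjusted p = 4.7e-08). The change of the strain difference from GD18 to GD20 was 0.10 (SE 0.45, adjusted p = 0.891). Of the 15 LE/orl arrays, 12 lay below the minimum signal of 5 used here, so the size of the fold rests on values near the bottom of the scale. The 2 LE/orl arrays with an LE/wt-like index, at 6.03 and 5.45, were the highest of the LE/orl arrays and still below the female values of 7.69, 7.92, 7.89 and 7.93. Without both arrays the difference was −4.84 on GD18 (adjusted p = 1.42e-14) and −5.30 on GD19 (adjusted p = 1.95e-15). With the index as a covariate Tk1 differed by −3.46 and −3.88 on GD18 and GD19 (adjusted p = 1.42e-07 and 2.28e-08). That fit gave −3.15 and −2.66 on GD20 left and right (adjusted p = 2.55e-05 and 0.000881). No GD20 LE/orl array had an index in the LE/wt range, so these GD20 values do not separate strain from index. The fit's slope on the index comes from spread within groups, where LE/orl GD18 A (−4.16) and GD19 D (−4.32) stood farthest from their group means. Its GD18 and GD19 values thus lean on these arrays too.

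**Figure D1:**
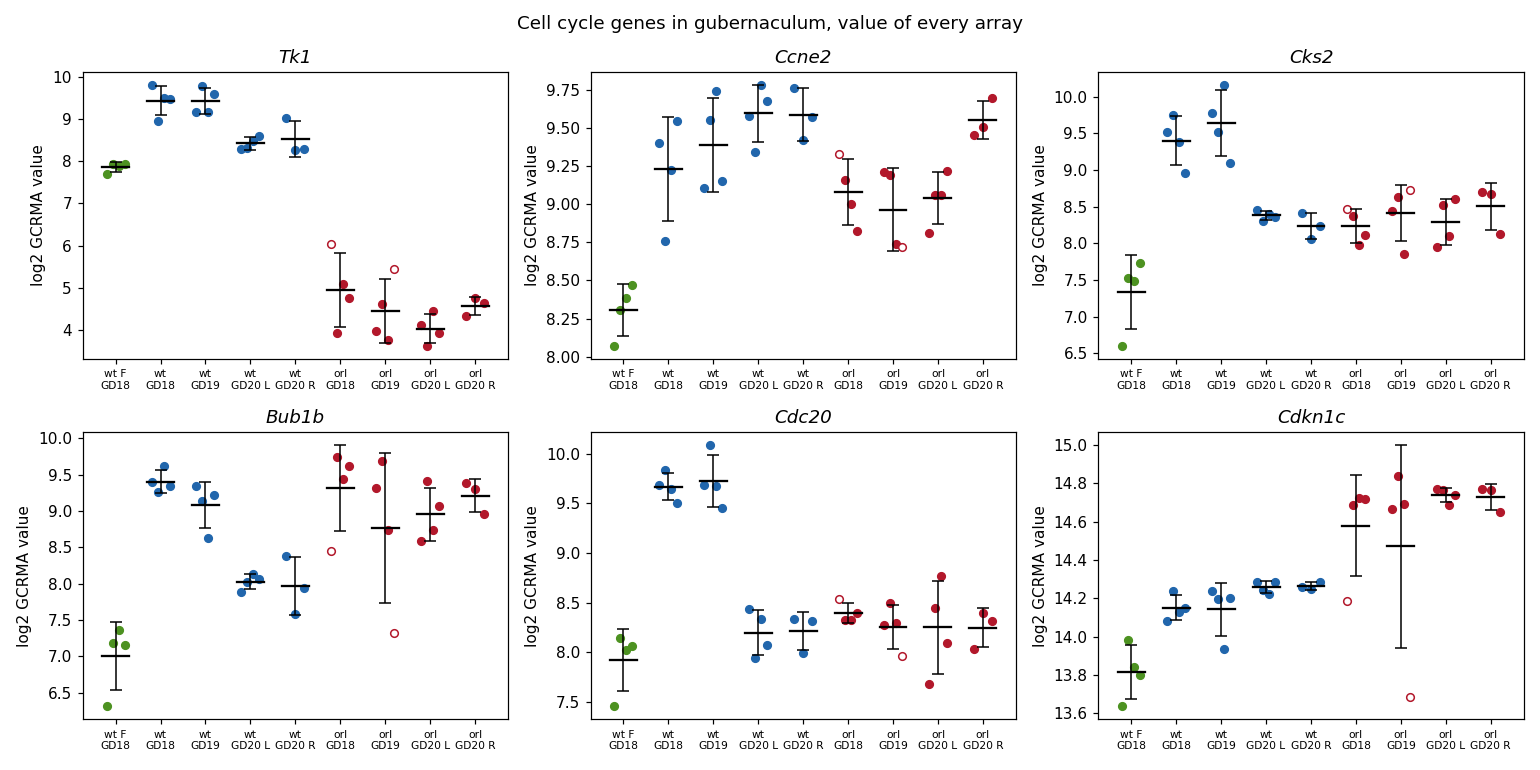
Log2 GCRMA value (y axes, scaled per gene and not starting at 0) of the 6 genes in every gubernaculum array, by group (x axis): LE/wt female in green, LE/wt male in blue and LE/orl male in red, L left and R right. Lines are group means and bars the SD, with 3 or 4 arrays a group. Open circles are LE/orl GD18 fetus A and GD19 fetus D. Tk1 is at or below 6.03 in every LE/orl array and at or above 7.69 in every LE/wt array.

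Cdc20, which switches on the anaphase-promoting complex, and Cks2, a small subunit of the mitotic kinase, were also lower in LE/orl on GD18 and GD19, and their differences on GD20 were not called. Cdc20, by the probe set of ID suffix a_at, which is meant throughout unless s_at is named, read 9.68, 9.84, 9.64 and 9.51 in LE/wt on GD18 and 8.54, 8.32, 8.32 and 8.39 in LE/orl. On GD19 it read 9.69, 10.09, 9.67 and 9.45 in LE/wt and 8.28, 8.49, 8.29 and 7.96 in LE/orl. On GD20 left it read 8.43, 7.95, 8.33 and 8.08 in LE/wt and 7.69, 8.45, 8.77 and 8.10 in LE/orl. The strains were thus apart on GD18 and GD19 and overlapped on GD20, where the LE/wt values had come down to the LE/orl range. Cks2 followed the same course, with 9.52, 9.75, 9.38 and 8.96 in LE/wt against 8.47, 8.37, 7.98 and 8.12 in LE/orl on GD18. Its GD19 values were 9.78, 9.51, 10.16 and 9.09 in LE/wt and 8.44, 8.64, 7.86 and 8.72 in LE/orl. By GD20 left they were 8.46, 8.31, 8.40 and 8.35 in LE/wt and 7.95, 8.52, 8.10 and 8.60 in LE/orl, inside which the LE/wt values lay.

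Cdc20 was lower in LE/orl by limma's test on GD18 (log2 difference −1.27, SE 0.19, adjusted p = 3.72e-06) and on GD19 (−1.47, SE 0.19, adjusted p = 4.46e-07). On GD20 left its difference was 0.05 (SE 0.19, adjusted p = 0.832). The s_at probe set of Cdc20 gave −1.18, −1.45 and −0.28 on the same days, the first 2 called. Cks2 was lower on GD18 (−1.17, SE 0.24, adjusted p = 0.000188) and GD19 (−1.22, adjusted p = 0.00011) and differed by −0.09 (SE 0.24, adjusted p = 0.777) on GD20 left. The change of the strain difference from GD18 to GD20 was itself called for both genes, at 1.33 for Cdc20 (SE 0.27, adjusted p = 0.000584) and 1.08 for Cks2 (SE 0.34, adjusted p = 0.0174). With the index as a covariate the Cks2 differences were −0.73 on GD18 (adjusted p = 0.0721) and −0.76 on GD19 (adjusted p = 0.0655), no longer called. Cdc20 stayed called in that fit, at −1.31 on GD18 (adjusted p = 0.0005) and −1.51 on GD19 (adjusted p = 0.000156). The change from GD18 to GD20 stayed called there for both genes, at 1.32 for Cdc20 and 1.17 for Cks2. In the 2 LE/orl arrays with an LE/wt-like index Cdc20 read 8.54 and 7.96 and Cks2 8.47 and 8.72, below every LE/wt male array of the same day. Without both arrays the differences were −1.32 and −1.37 for Cdc20 and −1.25 and −1.33 for Cks2 on GD18 and GD19, all called.

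Bub1b, a kinase-like protein of the spindle checkpoint, was higher in LE/orl on GD20. It read 9.40, 9.26, 9.62 and 9.34 in LE/wt and 8.45, 9.75, 9.45 and 9.62 in LE/orl on GD18. The GD19 values were 9.34, 9.13, 8.63 and 9.23 in LE/wt and 9.32, 9.69, 8.73 and 7.33 in LE/orl. On both days the strains overlapped, with fetus A on GD18 and fetus D on GD19, the 2 arrays of LE/wt-like index, lowest in LE/orl. On GD20 left Bub1b read 7.89, 8.02, 8.14 and 8.07 in LE/wt and 8.59, 9.42, 8.74 and 9.07 in LE/orl. Right organs read 8.38, 7.58 and 7.94 in LE/wt and 9.38, 9.30 and 8.96 in LE/orl. Every GD20 LE/orl array of a side thus stood above the LE/wt arrays of that side. The right organs came from fetuses A to C of the left organs, so the sides are not separate sets of animals.

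Bub1b was higher in LE/orl on GD20 left by 0.93 (SE 0.34, adjusted p = 0.0244 by limma) and on GD20 right by 1.24 (SE 0.39, adjusted p = 0.0129). The left call was lost without LE/wt fetus A (adjusted p = 0.0553), LE/orl fetus B (0.0837) or LE/orl fetus D (0.0525), and the right call without LE/wt fetus B (0.0659). The differences on GD18 and GD19, −0.09 (SE 0.34, adjusted p = 0.843) and −0.32 (adjusted p = 0.448), were not called, and the change from GD18 to GD20, 1.02 (SE 0.48), had an adjusted p of 0.108. Without both arrays Bub1b differed by 0.20 on GD18 (adjusted p = 0.497) and 0.16 on GD19 (adjusted p = 0.585), and the change was 0.73 (adjusted p = 0.0938). Array weights gave a change of 0.90, which was called (adjusted p = 0.0112). With the index as a covariate the difference was −1.04 on GD18 (adjusted p = 0.0418), −1.33 on GD19 (adjusted p = 0.0125), −0.22 on GD20 left (adjusted p = 0.922) and 0.05 on GD20 right (adjusted p = 0.995). On GD20 no LE/orl array had an index in the LE/wt range, so strain and index cannot be told apart there. The GD18 and GD19 values of this fit lean on the arrays of LE/wt-like index, from which much of the within-group spread of the index comes.

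Cdkn1c, the kinase inhibitor of the set, was among the brightest probe sets of the gubernaculum, with a higher mean in only 9 of 15866 probe sets that are no controls. Its values on GD18 were 14.08, 14.24, 14.13 and 14.15 in LE/wt and 14.19, 14.69, 14.72 and 14.72 in LE/orl. On GD19 they were 14.24, 14.20, 13.94 and 14.20 in LE/wt and 14.67, 14.84, 14.69 and 13.69 in LE/orl, and on GD20 left 14.28, 14.24, 14.22 and 14.29 against 14.77, 14.76, 14.69 and 14.74. All 13 LE/orl arrays of low index lay at 14.65 or above and all LE/wt arrays at 14.29 or below, while the 2 other LE/orl arrays, at 14.19 and 13.69, fell within the LE/wt range, females included.

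Cdkn1c was higher in LE/orl on GD18 by 0.43 (SE 0.17, adjusted p = 0.0313 by limma) and on GD20 left by 0.48 (SE 0.17, adjusted p = 0.0182). It differed by 0.33 (adjusted p = 0.0974) on GD19 and by 0.46 (adjusted p = 0.0541) on GD20 right. The GD18 call was lost when any of LE/wt A, C or D (adjusted p = 0.0665, 0.059 and 0.053) or LE/orl B, C or D (0.0785, 0.0874 and 0.0844) was left out. Without both arrays of LE/wt-like index it was higher on every day, by 0.56 on GD18 (adjusted p = 4.97e-05), 0.59 on GD19 (adjusted p = 2.88e-05), 0.48 on GD20 left (adjusted p = 0.000158) and 0.46 on GD20 right (adjusted p = 0.00134). Leaving out LE/orl GD19 fetus D alone gave 0.59 on GD19 (adjusted p = 0.000276). With the index as a covariate it was −0.10 on GD18 (adjusted p = 0.701) and −0.16 on GD20 left (adjusted p = 0.852). Whether the signal was saturated at this level was not tested.

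Ccne2, the cyclin of S-phase entry, had the smallest span of means among the male groups apart from Cdkn1c. It read 9.58, 9.34, 9.78 and 9.67 in LE/wt on GD20 left and 8.81, 9.06, 9.06 and 9.22 in LE/orl, which did not overlap. Right organs of GD20 read 9.76, 9.42 and 9.57 in LE/wt and 9.45, 9.51 and 9.69 in LE/orl, which did. The left difference was −0.56 (SE 0.17, adjusted p = 0.0101 by limma) and the right −0.03 (SE 0.20, adjusted p = 0.912); whether these differ was not tested. The left difference was −0.56 and no longer called with the index as a covariate (adjusted p = 0.467). On GD18 Ccne2 differed by −0.15 (SE 0.17, adjusted p = 0.482). On GD19 it was lower by limma's test, at −0.42 (adjusted p = 0.0423). That call was lost without LE/wt fetus B (adjusted p = 0.106) or C (0.164) or LE/orl fetus C (0.131) or D (0.121), and without both arrays of LE/wt-like index (0.11). It was also lost with array weights, where the difference was −0.16 (adjusted p = 0.442), with the index as a covariate (adjusted p = 0.195) and without a minimum signal (0.0511). The GD18 difference was −0.24 (adjusted p = 0.271) without both arrays.

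**Figure D2:**
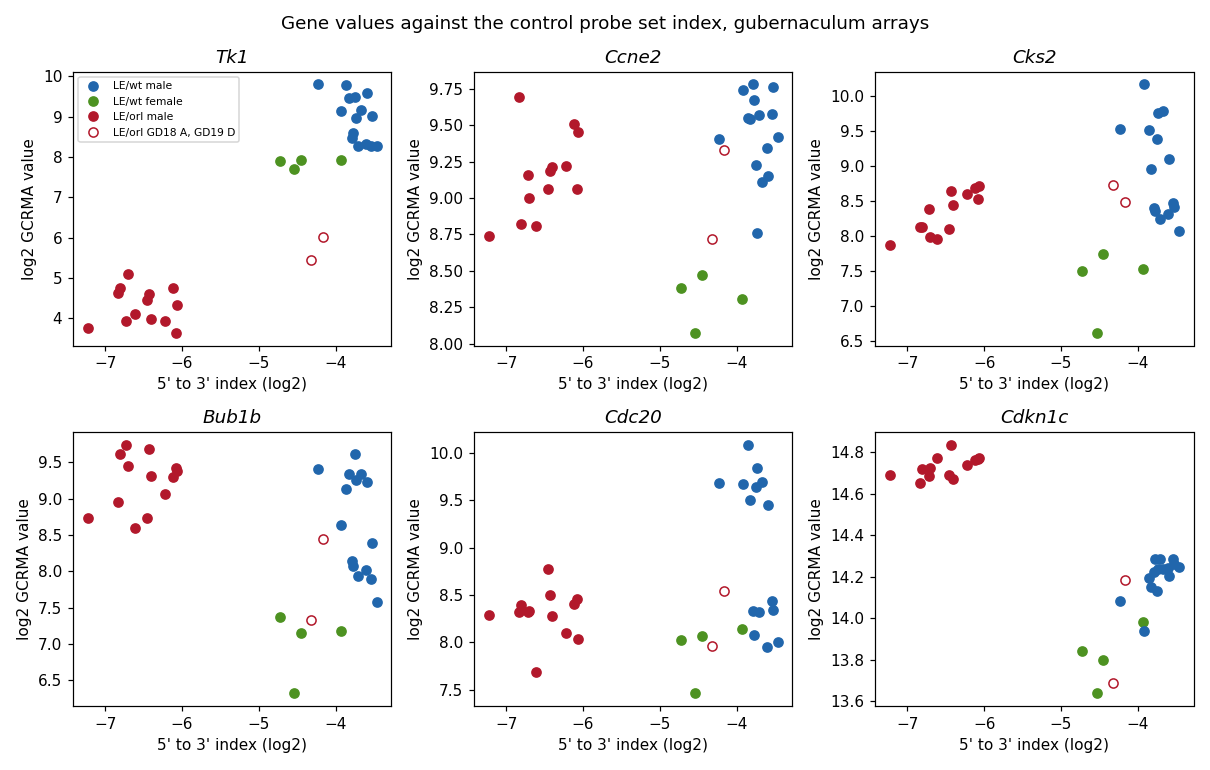
Log2 GCRMA value of each gene (y axes, scaled per gene and not starting at 0) against the 5′ to 3′ index (x axis, log2) in the 34 gubernaculum arrays, LE/wt male blue, LE/wt female green, LE/orl red. LE/orl GD18 fetus A and GD19 fetus D, at an index of −4.16 and −4.32, are open circles. They lie near LE/wt for Cdkn1c and below every LE/wt array for Tk1.

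Counted by gene at an adjusted p under 0.05, with 1 probe set a gene, LE/orl was higher for 1 and lower for 3 of the 6 genes on GD18. Over all 8872 probe sets 27.2% were called higher and 24.1% lower in that comparison. On GD19 none was higher and 4 were lower, beside 26.6% and 25.9% of all probe sets. On GD20 left 2 were higher and 2 lower, beside 20.1% and 26.9%, and on GD20 right 1 was higher and 1 lower, beside 18.1% and 20.3%. The change from GD18 to GD20 was called upward for 2 genes and downward for none, beside 10.4% and 17.3%. Limma called 46 of 8872 probe sets on GD20 left and 41 on GD20 right with the index as a covariate, and of the 6 genes Tk1 alone on each side. That fit cannot separate strain from index on GD20, when every LE/orl index lay below the LE/wt range. With so many probe sets called without the covariate, the counts alone do not set the genes apart from the background.

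The named genes of a wider cell cycle list did not move as 1 block between the strains. Of the list's 207 genes, 59 were named in the files, and 53 besides the 6 genes were tested in gubernaculum. All were named through the authors' lists, which were chosen on these same arrays. Their counts and medians thus do not stand for the whole list, and all probe sets are no matched background for them. LE/orl was higher for 20 and lower for 20 of the 53 on GD18, with a median log2 difference of −0.18 beside 0.06 over all probe sets. On GD19 18 were higher and 24 lower, with a median of −0.23 beside 0.02. On GD20 left 7 were higher and 23 lower, with a median of −0.50 beside −0.09, and on GD20 right 7 were higher and 17 lower, with a median of −0.40 beside −0.01. The change from GD18 to GD20 was called upward for 10 and downward for 15, with a median of −0.48 beside −0.09. Without LE/orl GD18 A and GD19 D, 19 were higher and 23 lower on GD18, 19 and 24 on GD19, and the median of the change was −0.19. With the index as a covariate 11 were higher and 9 lower on GD18 and 10 and 10 on GD19, with medians of 0.12 and 0.04, above 0 where they were below it. On GD20 left none was then higher and 1 lower, and on GD20 right none was called.

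Cdkn3, a phosphatase acting on cyclin-dependent kinases, and Pttg1, the securin that Cdc20 marks for destruction, were lower in LE/orl on GD18 and GD19, as Cdc20 was. Cdkn3 was lower in LE/orl by limma's test on GD18 (log2 difference −2.34, adjusted p = 8.22e-09) and GD19 (−2.10, adjusted p = 5.1e-08), and differed by −0.51 (adjusted p = 0.0773) on GD20 left. Pttg1 differed by −1.96 (adjusted p = 4.56e-07), −1.73 (adjusted p = 2.79e-06) and −0.52 (adjusted p = 0.0902) on the same days, and by −1.10 (adjusted p = 0.0044) on GD20 right. The change of the strain difference from GD18 to GD20 was called for Cdkn3 (1.83, adjusted p = 0.000217) and Pttg1 (1.44, adjusted p = 0.00377). Without LE/orl GD18 A and GD19 D the GD18 and GD19 differences were −2.53 and −2.33 for Cdkn3 and −2.18 and −1.77 for Pttg1, all called, and Cdkn3 was also called on GD20 left (adjusted p = 0.0328). Ube2s, a ubiquitin-conjugating enzyme of the anaphase-promoting complex, was lower on GD20 left by −3.63 (adjusted p = 2.57e-05) and right by −3.60 (adjusted p = 0.000277). Smc3, a cohesin ring subunit, was higher on GD18 (1.58, adjusted p = 1.72e-07), and Dnmt1, which copies DNA methylation at replication, was higher on GD20 left (2.40, adjusted p = 1.08e-05). Dctpp1, which breaks down dCTP, was lower on GD19 (−2.14, adjusted p = 1.45e-07). Orc4 of the origin recognition complex was lower on GD20 left (−1.42, adjusted p = 1.95e-05) and the primase subunit Prim1 on GD20 right (−2.62, adjusted p = 0.000287), where the clamp loader subunit Rfc1 was higher (1.82, adjusted p = 0.000706). None of the GD20 differences of Ube2s, Dnmt1, Orc4, Prim1, Rfc1 and Pttg1 named here was called with the index as a covariate. In the change from GD18 to GD20 the 3 genes of lowest p all moved downward: Smc3 (−1.86, adjusted p = 1.88e-05), the cyclin Ccng2 (−1.65, adjusted p = 4.99e-05) and the spindle protein Dlgap5 (−2.22, adjusted p = 5.72e-05).

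Markers of other cell types moved in these comparisons as well. Only 2 of 6 endothelial, 3 of 5 smooth muscle and 1 of 6 macrophage markers were named, through the authors' lists chosen on these same arrays. Both tested endothelial markers, Cdh5 and Emcn, were lower in LE/orl on GD18 and GD19 (median log2 differences −1.07 and −1.29), and on GD20 left 1 of the 2 was higher (median 0.67). All 3 markers listed for smooth muscle, Acta2, Tagln and Des, were lower on GD18, GD19 and GD20 left (medians −1.62, −1.82 and −1.38). Of 7 skeletal muscle markers 4 were lower and 1 higher on GD18 (median −0.65), and 3 were lower and none higher on GD19 (median −0.40). Of 5 matrix markers 2 were higher and 1 lower on each of these days. The macrophage marker C1qc was lower on GD18 and GD19 (−4.23 and −3.69) and differed by −1.21 on GD20 left, not called. Without LE/orl GD18 A and GD19 D the endothelial, smooth muscle and C1qc calls of GD18 and GD19 were the same. The part of these cell types in the differences of the 6 genes was not tested.

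On GD18 5 of the 6 genes were higher in LE/wt males than in LE/wt females, and none was lower, beside 23.6% and 29.5% of all probe sets. Bub1b read 6.32, 7.18, 7.37 and 7.15 in females, below the male 9.40, 9.26, 9.62 and 9.34. Cks2 read 6.60, 7.52, 7.49 and 7.73 in females, and Cdc20 7.46, 8.14, 8.03 and 8.06. The females' Ccne2 values were 8.07, 8.30, 8.39 and 8.47, against 9.40, 8.76, 9.22 and 9.54 in males. The sexes did not overlap for any of the 6 genes, Cdkn1c included, whose difference was not called. The share of all probe sets without overlap was not counted, so this does not set the genes apart from the background.

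By limma's test the male minus female log2 difference was 2.40 for Bub1b (SE 0.34, adjusted p = 1.02e-06), a 5.28-fold higher value, and 2.07 for Cks2 (SE 0.24, adjusted p = 4.49e-08). It was 1.75 for Cdc20 (SE 0.19, adjusted p = 1.72e-08), 1.57 for Tk1 (SE 0.32, adjusted p = 0.000162) and 0.92 for Ccne2 (SE 0.17, adjusted p = 6.32e-05). Cdkn1c, at 13.64, 13.98, 13.84 and 13.80 in females, differed by 0.34 (SE 0.17, adjusted p = 0.089). Its difference was called in 3 other fits: without LE/orl GD18 A and GD19 D, which changes the shared error alone (0.34, adjusted p = 0.00418), with the index as a covariate (0.46, adjusted p = 0.0038) and with array weights (0.35, adjusted p = 0.00172). With quantile normalization it was 0.13 (adjusted p = 0.56). Of the 53 other list genes, 19 were higher in males and 13 lower, with a median of 0.23 beside −0.06 over all probe sets. Cdkn3 was higher by 2.14 (adjusted p = 2.14e-08) and the microtubule polymerase Ckap5 by 2.52 (adjusted p = 5.55e-08), while Smc3 was lower (−1.54, adjusted p = 1.69e-07). Both endothelial markers were also higher in males (median 1.44), and whether that bears on the 6 genes was not tested. The male arrays held the left organ alone and the female arrays both sides. This comparison and the GD18 strain comparison share the LE/wt male arrays.

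**Figure D3:**
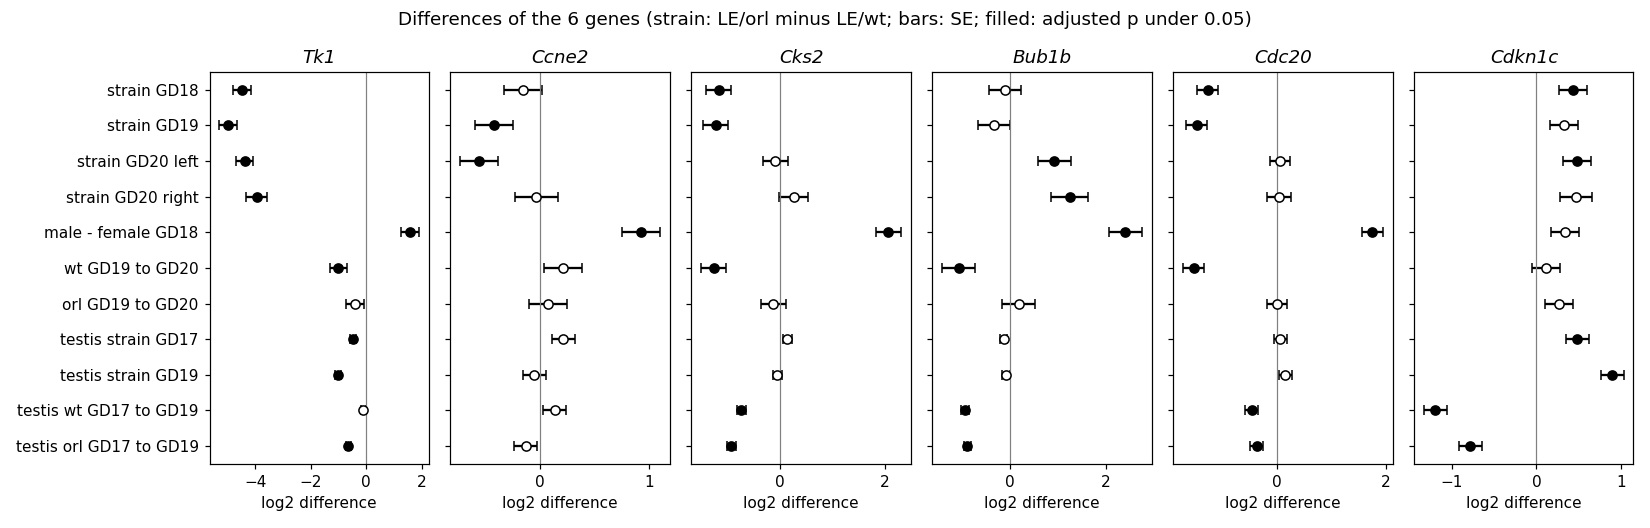
Log2 difference (x axes) of the 6 genes in 11 comparisons (y axis), 1 panel a gene with its own scale. Strain is LE/orl minus LE/wt in gubernaculum unless testis is named, day comparisons are the later minus the earlier day, bars are the SE, and filled circles have an adjusted p under 0.05. Tk1 stands at −4.97 to −3.94 in the 4 gubernaculum strain comparisons, and Cdc20 and Cks2 lie near 0 on GD20.

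In LE/wt males 4 of the 6 genes fell between GD19 and GD20 and none rose, beside 18.0% and 21.7% of all probe sets. The values given above for the left organs show the step: Cdc20 ran from 9.45 to 10.09 on GD19 and from 7.95 to 8.43 on GD20, with no overlap. Tk1, Cks2 and Bub1b likewise did not overlap between these days. Cdc20 fell by 1.53 on the log2 scale (SE 0.19, adjusted p = 5.22e-07 by limma), Cks2 by 1.26 (SE 0.24, adjusted p = 0.000136), Bub1b by 1.05 (SE 0.34, adjusted p = 0.0134) and Tk1 by 1.00 (SE 0.32, adjusted p = 0.014). Ccne2 and Cdkn1c differed by 0.21 (SE 0.17) and 0.12 (SE 0.17) and were not called. In LE/orl the same step gave 0.00 for Cdc20 (SE 0.19), −0.12 for Cks2 (SE 0.24), 0.19 for Bub1b (SE 0.34) and −0.42 for Tk1 (SE 0.32), none called, in a comparison that called 0.0789% of all probe sets. Without LE/orl GD18 fetus A and GD19 fetus D the LE/orl step was −0.29 for Bub1b, the opposite direction, −0.08 for Tk1, −0.10 for Cdc20 and −0.02 for Cks2, again none called. The strains' changes over GD19 to GD20 were not tested against each other. The test from GD18 to GD20 above covers the longer span.

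Of the 53 other list genes 17 rose and 15 fell in LE/wt from GD19 to GD20, with a median of 0.12 beside 0.01. Cdkn3 fell by 2.02 (adjusted p = 2.08e-07), Smc3 rose by 1.42 (adjusted p = 1.84e-06) and Cdkn2c, an inhibitor of the G1 kinases, rose by 1.72 (adjusted p = 3.15e-06). By role, 5 of 9 kinase inhibitors and arrest genes rose and 1 fell, 2 of 17 genes of DNA precursors and replication rose and 7 fell, and 7 of 18 genes of the spindle, checkpoint and exit rose and 4 fell. Of 5 genes of G1 and S entry 2 rose and 1 fell, and of 4 genes of G2 and mitotic entry 1 rose and 2 fell. Both endothelial markers fell over the same step (median −1.63), as did C1qc (−3.44) and both red cell markers, Hbe1 and Car1 (median −3.16). Their part was not tested.

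No member was called between GD18 and GD19 in either strain, where limma called 0.237% of all probe sets in LE/wt and 0.101% in LE/orl. The members' log2 differences ran from −0.32 to 0.24 in LE/wt and from −0.55 to 0.18 in LE/orl (−0.47 to 0.16 without LE/orl GD18 A and GD19 D), and none had an unadjusted p under 0.05. Left and right organs on GD20 also gave no called member, and limma called 0% of all probe sets in each strain, with 19 probe sets at an unadjusted p under 0.05 in LE/wt and 424 in LE/orl. Left minus right differences of the members ran from −0.10 to 0.14 in LE/wt and from −0.54 to 0.08 in LE/orl. Ccne2 in LE/orl, −0.51 (SE 0.19), was the 1 member with an unadjusted p under 0.05.

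In testis Tk1 was lower and Cdkn1c higher in LE/orl, in arrays whose index ranges overlapped. Of the 6 genes, only Tk1 and Cdkn1c were on the authors' testis list. That list was chosen on these same arrays, so the testis differences are not an independent repeat of those in gubernaculum. On GD17 Tk1 read 6.98, 6.98, 6.99, 7.12 and 7.32 in LE/wt and 6.81, 6.48, 6.64, 6.74 and 6.31 in LE/orl. On GD19 it read 7.10, 6.90, 7.01, 6.99 and 6.87 in LE/wt and 6.17, 5.97, 6.00, 6.01 and 5.66 in LE/orl. The strains did not overlap on either day. Cdkn1c read 12.21, 11.80, 11.51, 11.66 and 12.13 in LE/wt and 12.31, 12.38, 12.24, 12.31 and 12.48 in LE/orl on GD17. The GD19 values were 10.77, 10.73, 10.34, 11.08 and 10.44 in LE/wt and 11.59, 11.44, 11.49, 11.65 and 11.67 in LE/orl, again apart.

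Of the 6 genes, Cdkn1c was called higher and Tk1 lower on each day, beside 7.24% and 11.2% of 8013 probe sets on GD17 and 5.24% and 8.1% on GD19. Tk1 fell by 0.48 on GD17 (SE 0.10, adjusted p = 0.00242 by limma) and by 1.02 on GD19 (SE 0.10, adjusted p = 7.21e-07). The strain difference of Tk1 grew between the days, with a change of −0.54 (SE 0.14, adjusted p = 0.0231), the 1 member called, beside 4.7% of all probe sets called lower and 4.94% higher. Cdkn1c was higher by 0.48 on GD17 (SE 0.13, adjusted p = 0.0138) and by 0.90 on GD19 (SE 0.13, adjusted p = 9.67e-05), and the change of 0.41 (SE 0.19) had an adjusted p of 0.161. The Cdc20 probe sets disagreed on GD17: s_at was higher in LE/orl (0.28, SE 0.08, adjusted p = 0.0137) and a_at differed by 0.06 (SE 0.12, adjusted p = 0.76). Bub1b, Cks2 and Ccne2 differed by −0.12, 0.14 and 0.22 on GD17 and by −0.08, −0.05 and −0.05 on GD19, none called. The size of the Tk1 difference was not tested between the tissues.

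All 5 matrix markers, Col1a1 among them, were lower in LE/orl testis on GD17 (median −0.67), and on GD19 none was called. Both Leydig markers were lower on GD17 and GD19 (medians −0.71 and −0.72). The part of these cells in the values of Tk1 and Cdkn1c was not tested. Of 49 other list genes tested in testis, 4 were higher and 4 lower on GD17 and 4 higher and 1 lower on GD19. Rpa2, a subunit of the single-strand DNA binding complex, was higher on both days (0.43, adjusted p = 0.000465, and 0.34, adjusted p = 0.00475). The retinoblastoma gene Rb1 (0.34, adjusted p = 0.00667) and the repressor E2f5 (0.33, adjusted p = 0.013) were higher on GD17. The clamp loader subunit Rfc4 (0.44, adjusted p = 0.00115) and Anapc5 of the anaphase-promoting complex (0.30, adjusted p = 0.00207) were higher on GD19. Rfc3, of the clamp loader, was the 1 list gene whose strain difference changed (−0.45, adjusted p = 0.0311).

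**Figure D4:**
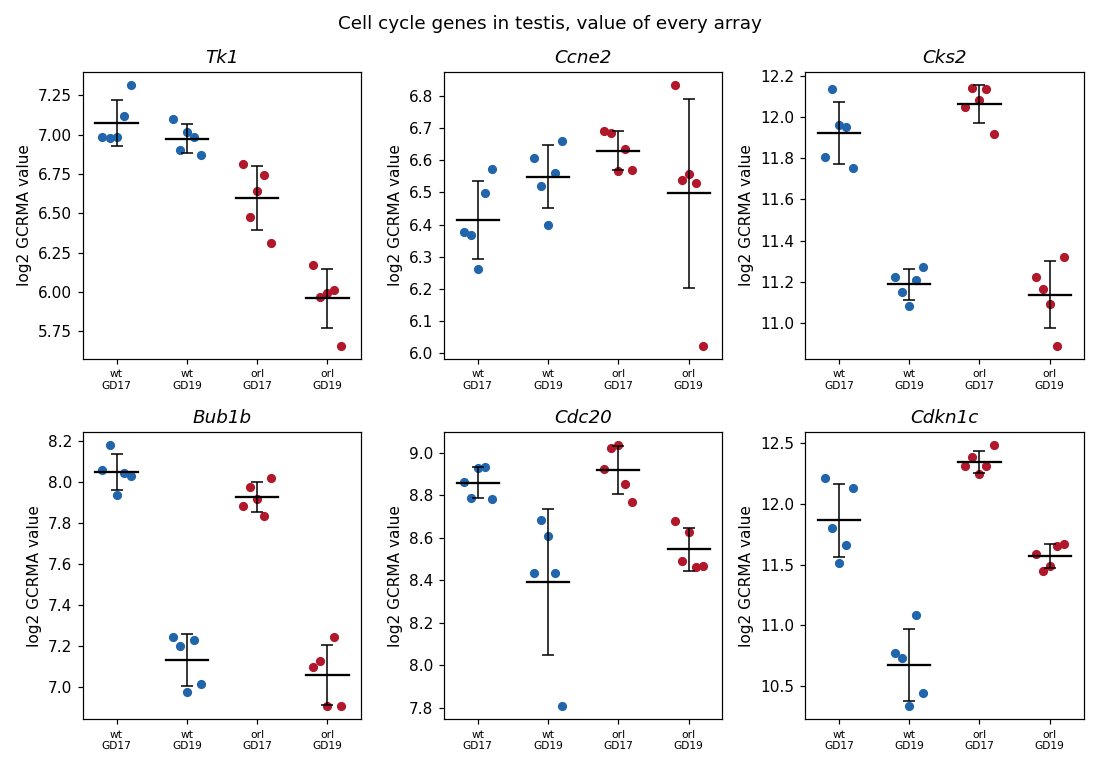
Log2 GCRMA value (y axes, scaled per gene and not starting at 0) of the 6 genes in every testis array, by strain and day (x axis), LE/wt blue and LE/orl red, 5 arrays a group with mean lines and SD bars. Tk1 is lower and Cdkn1c higher in LE/orl on each day with no overlap, and Bub1b, Cks2 and Cdkn1c are lower on GD19 than on GD17 in each strain.

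Between GD17 and GD19 the testis values of Bub1b, Cks2 and Cdkn1c fell in each strain, as did Cdc20 by its a_at probe set. In LE/wt 4 of the 6 genes fell and none rose, beside 22.7% and 18.9% of all probe sets, and in LE/orl 5 fell and none rose, beside 30.2% and 25.3%. Bub1b ran from 7.94 to 8.18 on GD17 and from 6.97 to 7.24 on GD19 in LE/wt, and Cks2 from 11.75 to 12.14 and from 11.08 to 11.27. Cdkn1c fell by 1.19 in LE/wt, the most of the 6 genes there (SE 0.13, adjusted p = 5.07e-07 by limma). In LE/wt Bub1b fell by 0.92 (adjusted p = 1.28e-08), Cks2 by 0.73 (adjusted p = 7.59e-07) and Cdc20 by 0.47 (adjusted p = 0.00299). The LE/wt fall of Cdc20 was −0.32 and still called without fetus E of GD19, the lowest array, while the s_at probe set differed by −0.13 (adjusted p = 0.18) with overlapping days. In LE/orl Bub1b fell by 0.87 (adjusted p = 1.18e-08), Cks2 by 0.93 (adjusted p = 1.34e-08), Cdkn1c by 0.78 (adjusted p = 4.37e-05), Tk1 by 0.64 (adjusted p = 2.18e-05) and Cdc20 by 0.37 (adjusted p = 0.0096), with −0.39 by s_at (adjusted p = 0.000226). Ccne2 differed by 0.13 in LE/wt and −0.13 in LE/orl, neither called, and Tk1 by −0.10 (adjusted p = 0.448) in LE/wt.

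Of the 49 tested genes of the wider list, 26 were lower and 2 higher on GD19 in LE/wt testis, and 24 lower and 4 higher in LE/orl. Their median log2 differences were −0.21 and −0.21, beside −0.03 and −0.04 over all probe sets. They too were named only through lists chosen on the arrays of this study, so they do not stand for the whole list. E2f5 fell by 1.08 and 1.26 (adjusted p = 9.58e-09 and 4.41e-10), and Dlgap5 by 0.91 and 1.01 (adjusted p = 1.33e-07 and 1.26e-08). The mitotic motor Kifc1 fell by 0.60 in LE/wt (adjusted p = 8.94e-07) and Pttg1 by 0.80 in LE/orl (adjusted p = 5.36e-08). Over the same days all 5 matrix markers and both Leydig markers rose in each strain (Leydig medians 1.60 and 1.59). Of the 2 red cell markers, Hbe1 and Car1, 1 fell in LE/wt (median −1.52) and 2 fell in LE/orl (median −3.38). The part of these cells was not tested.

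Ordered by group mean in gubernaculum, Tk1 ran from LE/wt GD18 (9.43) and GD19 (9.42), which overlapped, through LE/wt GD20 and the females to the 4 LE/orl groups, which overlapped with their neighbours. For Cdc20 and Cks2 the LE/wt GD18 and GD19 groups overlapped each other at the top. The next group of each, at a mean of 8.39 and 8.50, lay apart from them and belonged to LE/orl. Cdc20 means of the 6 remaining male groups lay between 8.20 and 8.39, with neighbours overlapping. The s_at probe set of Cdc20 gave another order: LE/wt GD20 left (7.60) and right (7.54) came next, above the LE/orl groups, with neighbours overlapping. Females were lowest for Ccne2, Cks2, Bub1b, Cdc20 (a_at) and Cdkn1c.

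The named genes most like each member over the 34 gubernaculum arrays differed from gene to gene, by Pearson's r over 2821 named genes. These r follow differences between groups that share strain, day and index, and carry no test. Tk1 was most like Atp5f1d and Nit2 (r = 0.97 each) and Phb1 (0.96). Cdc20 was most like LOC683838, Nudt14 and Rpp21 (0.94 each), and Cks2 like LOC683838 (0.91), Dnajc15 (0.91) and Emc6 (0.90). Bub1b was most like the replication helicase subunit Mcm2 (0.93), Ubb (0.92) and Rbms1 (0.91). Cdkn1c was most like Vcl (0.97), Zeb1 (0.95) and Nek1 (0.95), and Ccne2 like the muscle regulator Myf6 (0.81), Klhl13 (0.80) and the angiotensin receptor Agtr2 (0.79). Between members, r over the 34 arrays was 0.85 for Cks2 with Cdc20 and −0.73 for Tk1 with Cdkn1c, and both differed within the strains. For Cks2 with Cdc20, r was 0.92 over the 19 LE/wt arrays and −0.03 over the 15 LE/orl arrays. For Tk1 with Cdkn1c, r was 0.41 in LE/wt and −0.65 in LE/orl. For Tk1 with Bub1b it was −0.27 over all arrays, 0.94 in LE/wt and −0.44 in LE/orl. Among LE/orl arrays, GD18 fetus A and GD19 fetus D, of LE/wt-like index, were highest for Tk1 (6.03 and 5.45). They were lowest for Cdkn1c (14.19 and 13.69) and for Bub1b (8.45 and 7.33). The negative LE/orl r of Tk1 with these genes may thus rest on these arrays, and r without them was not computed. Most LE/orl values of Tk1 also lay below the minimum signal.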

How the data were processed

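Affymetrix rat arrays measured 34 gubernaculum and 20 testis samples. The deposited value table holds GCRMA values on the log2 scale made by the authors, per the submitters' processing notes (no version given). In the authors' deposited lists of chosen probe sets the group means are linear intensity values rounded to whole numbers, and the choice used limma and an ANOVA, per the deposited methods text. These means were matched to the value table within 0.51, and for LE/orl GD18 and GD19 they matched only without fetuses A and D. Symbols came from the lists and were updated through RefSeq GRCr8: of 3008 listed probe sets with 1 symbol, 2064 were current, 707 updated and 237 kept as listed, and 165 with several and 749 with none stayed unnamed.

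Probe sets with a log2 value of at least 5 in 3 gubernaculum or 5 testis arrays were tested (8872 and 8013), per tissue, with all groups in 1 fit, in limma 3.58.1 (R 4.3.3) with lmFit, contrasts and eBayes, and p-values were adjusted by Benjamini-Hochberg over all of them at 0.05. The script was tested on simulated data. The number of arrays limits the precision. Each array is 1 fetus; nothing in the labels gives litters. Named were the 6 genes with every probe set, per comparison the 3 other list genes of lowest p (each with the probe set of highest mean), and the 3 named genes of highest r with each member. The genes, the lists and the tests were chosen with earlier results of these data known. Letters do not pair the strains or days, but GD20 left and right organs of a letter share a fetus per the labels; their deviations correlated at r of −0.35 to 0.35 in LE/wt and 0.19 to 0.55 in LE/orl. Alternatives were other minimum signals, quantile normalization, array weights, the index as a covariate, a replicate block, another probe set, and leaving out each array or LE/orl GD18 A and GD19 D together.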

Additional observations from a re-analysis of the deposited data

Results flagged for a closer look

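In 6 of 77 groups of 4 or 5 arrays, 1 array stood far from the rest by Dixon's test, and chance alone gives about 1 in 20. Tk1 and Cdc20 (a_at) were lowest in female GD18 fetus A, at 7.69 and 7.46. Cdc20 was lowest in LE/wt GD19 testis E, at 7.81. Cdkn1c was lowest at 13.94 in LE/wt GD19 C, 14.19 in LE/orl GD18 A and 13.69 in LE/orl GD19 D, the last 2 being the arrays whose index was that of LE/wt.

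The strain difference changed between days for 3 genes, by limma's test of the change. In gubernaculum the change from GD18 to GD20 was 1.08 for Cks2, and 1.33 and 0.90 for the Cdc20 probe sets a_at and s_at. Of all probe sets 10.4% were called higher and 17.3% lower in that test. In testis the change from GD17 to GD19 was −0.54 for Tk1, beside 4.94% of all probe sets called higher and 4.7% lower.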

How the results depend on the processing

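With the index as a covariate, limma called 2692 probe sets on GD18, 2850 on GD19, 46 on GD20 left, 41 on GD20 right and 40 for LE/wt GD18 to GD19, and 1 member, Tk1, on each GD20 side. Strain and index cannot be told apart on GD20, and on GD18 and GD19 that fit leans on LE/orl GD18 A and GD19 D. Cdkn1c reversed on GD18 (−0.10) and GD20 left (−0.16), and Bub1b on GD20 left (−0.22); the cause was not tested. Array weights gave 5324 probe sets on GD20 right, 3769 for the change from GD18 to GD20, 109 and 60 for GD18 to GD19 in LE/wt and LE/orl, 14 and 3 between sides in LE/wt and LE/orl, and 1200 for the testis change. Without a minimum signal the counts were 9581 for sex, 36 for LE/wt GD18 to GD19, 187 for LE/orl GD19 to GD20 and 1 between LE/orl sides. At a minimum of 7 they were 8 for LE/wt GD18 to GD19 and 2 for LE/orl GD19 to GD20. Tk1 was then not tested in testis, which left 1 member called on GD17, 1 on GD19 and 0 for the change. Without LE/orl GD18 A and GD19 D, 48 and 3 were called for GD18 to GD19 in LE/wt and LE/orl.

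With the letter as a replicate block, LE/orl GD18 to GD19 gave 5 probe sets, and Ccne2 on GD19 lost its call (adjusted p = 0.0531). No other member call changed under the block, the block of the shared fetus between sides included (0 called). Letters of the 2 strains shared only a letter: their deviations correlated at r of −0.23 to 0.25 in the gubernaculum strain comparisons of left organs.

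With each array left out in turn, limma called 3 to 4 members on GD18, GD19 and GD20 left and 1 to 2 on GD20 right (1 without LE/wt right fetus B). The member counts of the other comparisons stayed as they were. Probe sets called ranged from 11 to 25 for LE/wt GD18 to GD19 (21 with all arrays), 2 to 14 for LE/orl GD18 to GD19 (9), 0 to 28 for LE/orl GD19 to GD20 (7) and 0 to 1 between LE/orl sides. Quantile normalization moved the median of all probe sets by over 0.1 for the change from GD18 to GD20 alone, from −0.09 to 0.02, and kept the calls of Cdc20 and Cks2 there. It lost Ccne2 on GD20 left (adjusted p = 0.0518) and added Cdkn1c on GD19 and GD20 right (0.00597 and 0.00885). Tk1 kept its call in the 4 gubernaculum strain comparisons under every alternative run. Array number and signal near the ends of the scale limit the differences of Tk1 and Cdkn1c.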
